A study of Homo sapiens with 19 samples.

Results

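Human liver organoids grown from pluripotent stem cells held a population of epithelial cells in which mRNAs of VTCN1 and GABRP were found together. Members were chosen by their UMI counts. They were cells of organoids cultured in plates of ultra-low attachment (ULA) that had at least 500 detected genes, at most 20% mitochondrial counts, and at least 1 unique molecular identifier (UMI, the count of 1 captured mRNA molecule) of each of VTCN1 and GABRP. The rule found 4352 cells among 34289 ULA cells and 120240 cells in the whole series that passed the same limits on genes and mitochondrial counts. The organoids came from W01, an established human pluripotent stem cell line distributed by WiCell, with no genetic change or treatment named for the ULA groups. Single cells were profiled by droplet RNA sequencing with 10x Genomics chemistry that reads the 3′ ends of mRNAs. ULA organoids were sampled on day 21 (n = 3 libraries) and day 34 (n = 2 libraries). The other 14 libraries came from wild-type organoids of the same line on an orbital shaker, sampled on day 25, with 2 libraries in each of 7 groups. These were untreated organoids, organoids given TGFB1 (10 ng/ml), PA (500 µM) or OA (500 µM), and a control group for each agent. Per the labels, day 34 organoids were washed once more and kept in trypsin for 10 more minutes than day 21 organoids, so day and dissociation cannot be told apart. Nothing in the labels says that libraries of 1 day came from separate cultures, so p-values measure the spread between these libraries, which may be technical. All libraries share 1 cell line.

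VTCN1 encodes a cell-surface protein of the B7 family that can restrain T cells, and GABRP encodes the pi subunit of the GABA-A receptor, a chloride channel. Both are known from epithelia outside the liver and from amnion-like cells grown from pluripotent stem cells. TFAP2B is a transcription factor of the AP-2 family, which acts in ectoderm-derived tissue, and IRX1 is a homeobox factor of the Iroquois family. LRP2 (megalin) is an endocytic receptor, HPGD is the dehydrogenase that inactivates prostaglandins, and KRT7 is a keratin of simple epithelia that in the liver marks bile duct cells. These 5 genes are called the identity genes below, since they were named for these cells with earlier results in view. On GRCh38 in GENCODE v44, VTCN1 spans chr1:117143587-117210960 on the minus strand, GABRP chr5:170763350-170814047 on the plus strand and TFAP2B chr6:50818723-50847619 on the plus strand. LRP2 spans chr2:169127109-169362534 on the minus strand, IRX1 chr5:3595832-3601403 on the plus strand, KRT7 chr12:52232520-52252186 on the plus strand and HPGD chr4:174490175-174523154 on the minus strand.

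The 250 bases before the RefSeq start of both gate genes and of LRP2 are shown because AP-2 factors, among them TFAP2B, were part of the profile of these cells. The sequences are from RefSeq on GRCh38.p14, written 5′ to 3′ on the strand of the gene. Capitals mark the palindromic AP-2 motif GCCNNNGGC, which reads the same on both strands. The windows are chr1:117210928-117211177 for VTCN1, chr5:170783475-170783724 for GABRP and chr2:169362535-169362784 for LRP2.
VTCN1: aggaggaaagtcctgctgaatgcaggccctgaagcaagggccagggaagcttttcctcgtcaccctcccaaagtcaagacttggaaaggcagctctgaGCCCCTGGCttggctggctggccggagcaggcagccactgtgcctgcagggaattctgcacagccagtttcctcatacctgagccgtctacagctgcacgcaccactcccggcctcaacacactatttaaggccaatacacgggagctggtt
GABRP: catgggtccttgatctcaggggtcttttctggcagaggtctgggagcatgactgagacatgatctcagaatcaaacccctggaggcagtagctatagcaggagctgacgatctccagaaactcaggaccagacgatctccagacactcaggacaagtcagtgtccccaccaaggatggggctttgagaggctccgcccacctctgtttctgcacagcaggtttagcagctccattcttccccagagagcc
LRP2: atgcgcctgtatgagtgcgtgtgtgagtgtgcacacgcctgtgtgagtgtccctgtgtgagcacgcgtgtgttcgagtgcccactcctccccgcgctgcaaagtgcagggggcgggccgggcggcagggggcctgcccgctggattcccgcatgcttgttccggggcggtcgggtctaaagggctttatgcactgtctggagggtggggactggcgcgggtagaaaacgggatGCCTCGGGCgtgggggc
Of the 7 genes named so far, 6 were in the RefSeq table, and 4 of these held the motif in the window. VTCN1 held 1 copy that began 152 bases before the start, LRP2 held 1 that began 17 bases before it, and HPGD held 1 in the first of its 2 listed starts. IRX1 held 2 copies, and GABRP and TFAP2B held 0. The motif was in 19.8% of 35116 windows of this length over all RefSeq genes, which counts single windows, while HPGD had 2. G and C made up 57.2% of all windows, and 58.4, 66.8, 75.2 and 70.8% of the windows of VTCN1, LRP2, IRX1 and HPGD that held the motif. A match says only that these letters are present.

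The 5 ULA libraries held 73799160 to 92522222 UMIs each. Both day 34 libraries stood apart from the day 21 libraries and from each other. Over genes, the log-scale profiles of the gated cells correlated at 0.982 to 0.989 between day 21 libraries, at 0.897 to 0.930 between days and at 0.951 between the day 34 libraries. These correlations are across genes, which are not independent replicates. Library pairs shared 4 to 31 cell barcodes. The gated cells were deeper than the rest, with median UMI counts of 15446, 14256 and 14589 on day 21 and 22687 and 11354 on day 34, against 10742, 9639, 9430.5, 13472 and 5821.5 in the other cells. A score for doublets marked 6.10 to 18.1% of gated cells and 3.24 to 10.3% of other cells per library. The share to be marked was set in advance from the number of barcodes, and so differed between libraries. It was 5.27, 5.89 and 5.70% of all cells on day 21 and 3.61 and 10.7% on day 34. The automatic limit of the caller marked 28.1% of the gated cells of day 34 replicate 2 (166 of 591).

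The share of cells with both mRNAs was higher in the day 21 libraries. It was 22.6% (1334 of 5902 cells), 13.5% (721 of 5335) and 18.2% (1149 of 6299) in replicates 1 to 3 of day 21. It was 12.9% (557 of 4326) and 4.76% (591 of 12427) in replicates 1 and 2 of day 34. Every day 34 library lay below every day 21 library, with day 34 replicate 1 close to day 21 replicate 2. The exact Clopper-Pearson 95% intervals, which cover counting error only, ran from 12.6 to 14.5% in day 21 replicate 2 and from 11.9 to 13.9% in day 34 replicate 1, and so overlapped. The means were 18.1% ± 4.55 (SD, n = 3) on day 21 and 8.82% ± 5.74 (SD, n = 2) on day 34. The difference of -9.30 percentage points had a two-sided exact permutation p of 0.2, the smallest that 3 against 2 libraries can give, so this design cannot reach 0.05. It was -5.24 points without day 34 replicate 2. With stricter cells (at least 1000 genes and at most 10% mitochondrial counts) the days overlapped, with day 34 replicate 1 at 12.98% and day 21 replicate 2 at 11.4% (difference -7.31 points, exact permutation p = 0.4).

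A gate on 1 UMI depends on depth, so each cell was also thinned to 3000 UMIs, leaving out 219, 180 and 765 shallower cells on day 21 and 55 and 1167 on day 34. The share was then 7.25, 4.17 and 6.45% on day 21 and 2.39 and 1.37% on day 34, again with no overlap between the days (difference -4.08 points, exact permutation p = 0.2). The 2 gate genes differed in this. VTCN1 was found in 25.9, 15.9 and 21.4% of cells on day 21 and in 17.7 and 7.05% on day 34, and after thinning in 11.9, 7.16 and 10.5% against 6.58 and 3.21%. GABRP was found in 30.9, 19.5 and 27.4% on day 21 and in 27.9 and 24.5% on day 34, and after thinning in 18.8, 11.4 and 18.4% against 11.8 and 15.9%. The days overlapped for GABRP in both counts, and for VTCN1 only in the unthinned count. Of the GABRP cells, 73.1, 69.4 and 66.6% also held VTCN1 on day 21, against 46.2 and 19.4% on day 34 (38.6, 36.5 and 35.1% against 20.3 and 8.57% after thinning). Mesenchymal cells, taken as those with at least 3 UMIs each of COL1A2 and COL3A1 and 0 of EPCAM, served as a class that should lack both genes. Their median depth was 5643 to 14183 UMIs, and VTCN1 was found in 0.556 to 1.10% of them per library, GABRP in 1.67 to 5.56% and both in 0.128 to 0.376%.

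**Figure D1:**
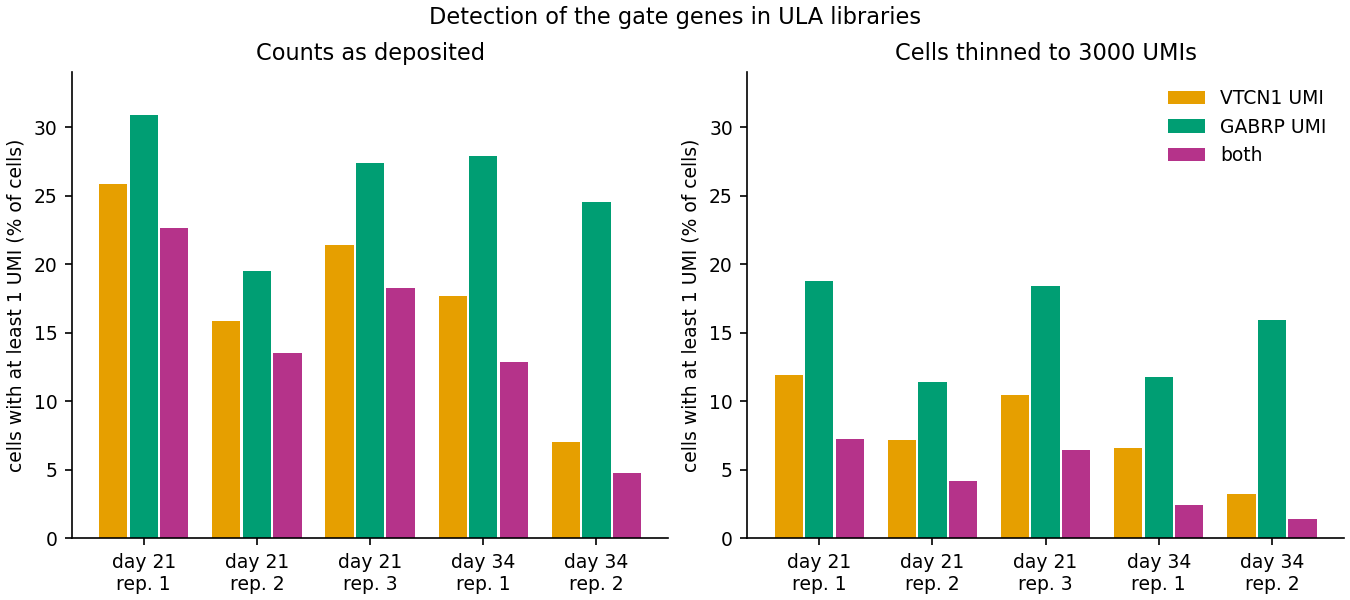
Share of cells (%) with at least 1 UMI of VTCN1, of GABRP and of both in each ULA library, as deposited (left) and with each cell thinned to 3000 UMIs (right). Bars are single libraries. The bar for both genes is lowest in the 2 day 34 libraries (12.9 and 4.76% as deposited), while the GABRP bar of day 34 lies within the range of day 21.

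Gated cells with at least 2 UMIs of each gate gene made up 61.0, 60.2 and 58.3% on day 21 and 57.5 and 27.6% on day 34. The median gated cell held 2, 2 and 2 UMIs of VTCN1 on day 21 and 3 and 1 on day 34, and 5, 4 and 5 UMIs of GABRP on day 21 and 4 and 3 on day 34. Cells with exactly 1 UMI of each made up 6.75, 8.599 and 7.48% of the gated cells on day 21 and 8.80 and 21.2% on day 34, so day 34 replicate 2 rested most on cells at the limit. As a description of cells on either side of the limit in day 21 replicate 1, TFAP2B was found in 71.1% of cells with exactly 1 UMI of each gate gene, in 53.6% of cells with VTCN1 alone, in 66.1% of cells with GABRP alone and in 4.19% of cells with neither. The corresponding values in day 34 replicate 2 were 18.4, 13.7, 21.3 and 11.9%. In day 34 replicate 1 they were 40.8, 37.5, 45.6 and 11.2%. For KRT7 in day 21 replicate 1 they were 83.3, 70.8, 72.2 and 11.3%, and for IRX1 65.6, 42.7, 58.6 and 7.75%. For LRP2 in that library they were 45.6, 38.5, 35.9 and 2.99%, and for HPGD 61.1, 35.4, 50.2 and 13.6%. Levels below are in CPM, the usual depth-scaled unit, here the UMIs of a gene relative to all UMIs of a class in 1 library. The gated cells held VTCN1 at 181, 193 and 176 CPM on day 21 and 159 and 121 CPM on day 34, and GABRP at 378, 404 and 409 CPM on day 21 and 253 and 418 CPM on day 34. The rule set these levels, so they are not tested.

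The identity genes marked the gated cells on day 21 and in part on day 34. Other EPCAM cells, a second reference beside all other cells, are the 10616 cells with EPCAM (an epithelial adhesion protein) and 0 UMIs of VTCN1 and of GABRP. KRT7 stood at 407, 331 and 309 CPM on day 21 and 423 and 281 CPM on day 34 in the gated cells, against 62.6, 29.2, 50.2, 94.7 and 133 CPM in other cells and 32.0, 23.4, 32.4, 133 and 134 CPM in other EPCAM cells. All 5 libraries had more KRT7 in the gated cells, and days did not separate. IRX1 stood at 114, 112 and 72.5 CPM on day 21 and 115 and 32.7 CPM on day 34, against 19.8, 17.2, 14.9, 34.7 and 14.7 CPM in other cells and 9.45, 16.9, 7.41, 52.3 and 13.6 CPM in other EPCAM cells. It was likewise above other cells in every library, and lowest in day 34 replicate 2.

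The other 3 identity genes were lower in both day 34 libraries than in any day 21 library. TFAP2B stood at 132, 108 and 154 CPM on day 21 and 40.03 and 23.0 CPM on day 34 in the gated cells, at 20.6, 10.7, 26.2, 22.4 and 27.7 CPM in other cells, and at 7.80, 5.83, 9.21, 35.8 and 31.5 CPM in other EPCAM cells. TFAP2B, given as a marker of these cells, therefore set them apart from both references on day 21. In day 34 replicate 2 the gated cells were below both references. After thinning, TFAP2B was found in 30.2, 25.0 and 34.8% of gated cells on day 21 and in 8.63 and 4.57% on day 34, against 3.36, 2.77, 4.03, 11.6 and 8.87% of other EPCAM cells. LRP2 stood at 51.4, 57.3 and 58.8 CPM on day 21 and 13.8 and 8.74 CPM on day 34, against 9.85, 5.43, 9.97, 5.42 and 3.78 CPM in other cells and 4.65, 4.14, 5.77, 11.1 and 2.99 CPM in other EPCAM cells. HPGD stood at 143, 112 and 134 CPM on day 21 and 20.8 and 47.7 CPM on day 34, against 36.4, 20.9, 42.2, 14.7 and 36.1 CPM in other cells and 36.4, 29.4, 44.1, 28.2 and 40.5 CPM in other EPCAM cells. For LRP2 and HPGD the gated cells stayed above other cells in all 5 libraries, and HPGD in day 34 replicate 1 lay below other EPCAM cells (20.8 against 28.2 CPM). In the mesenchymal reference TFAP2B stood at 1.05 to 7.28 CPM.

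**Figure D2:**
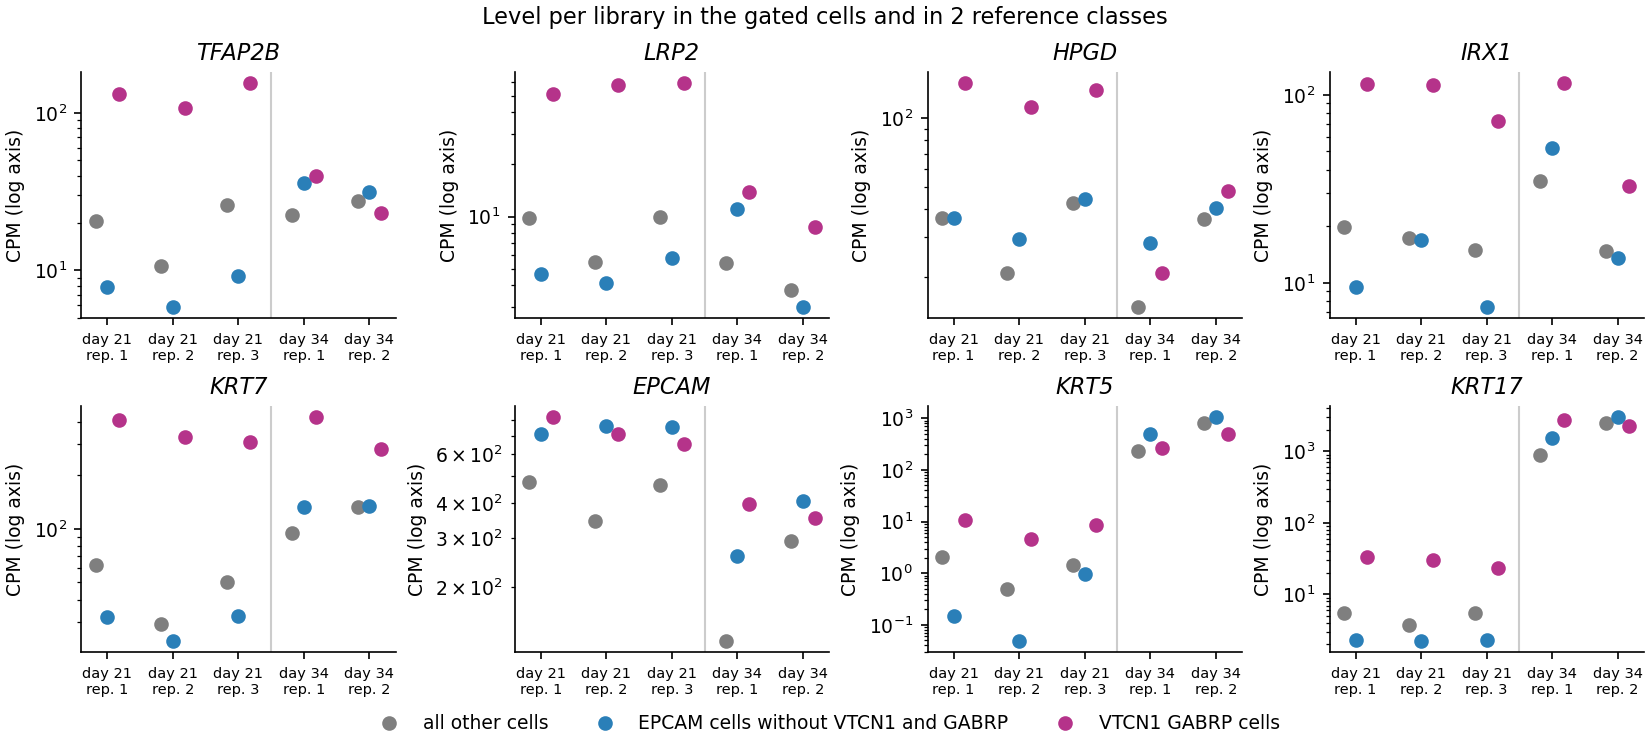
Level (CPM, log axis) of the 5 identity genes, EPCAM, KRT5 and KRT17 in each ULA library, in the gated cells (magenta), other EPCAM cells (blue) and all other cells (grey). Each point is 1 library and the grey line separates day 21 from day 34. TFAP2B lies between 108 and 154 CPM on day 21 and at 40.03 and 23.0 CPM on day 34 in the gated cells, KRT7 keeps its level, and KRT5 and KRT17 are high on day 34 in all 3 classes.

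Beyond the genes named for them, most tested epithelial and keratin list genes were higher in the gated cells than in the other cells of the same libraries. Most tested hepatocyte, gut and pluripotent list genes were lower. edgeR's quasi-likelihood test on counts summed per library, with the library as a block and Benjamini-Hochberg adjustment, called 6413 of 18832 genes (34.1%) at an adjusted p under 0.05, 3147 higher (16.7%) and 3266 lower (17.3%). The gate genes were left out of the test. With the block dropped, 2099 genes were called, and 11 of 25 named genes were no longer called, among them SPP1, INSL4, KRT4, SCEL, FABP2 and RBP2. Mean differences over libraries can hide a difference between days, as the TFAP2B values show.

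MUC16, a large mucin of wet epithelial surfaces, stood at 11.4, 16.1 and 10.9 CPM on day 21 and 114 and 32.0 CPM on day 34 in the gated cells, against 0.296, 0.489, 0.303, 9.41 and 3.38 CPM in other cells (log2 fold change 4.32, SE 0.33, edgeR adjusted p = 0.00022). Both classes were higher on day 34. SPP1 (osteopontin, a secreted matrix protein) stood at 971, 546 and 841 CPM on day 21 and 461 and 4389 CPM on day 34, against 90.2, 37.7, 69.6, 54.1 and 769 CPM (3.36, SE 0.18, adjusted p = 1e-04). CST6, a secreted inhibitor of cysteine proteases, stood at 12.7, 12.0 and 11.5 CPM on day 21 and 49.98 and 57.9 CPM on day 34, against 0.561, 0.453, 0.702, 4.51 and 9.24 CPM (3.83, SE 0.29, adjusted p = 0.00023). Genes were named only where the direction was the same in every library, so that agreement was fixed by the choice. INSL4, an insulin-like peptide of the early placenta, stood at 3.73, 6.39 and 3.95 CPM on day 21 and 4.18 and 55.4 CPM on day 34, against 0.125, 0.0181, 0.144, 0.239 and 12.9 CPM (4.12, SE 0.61, adjusted p = 0.0025). Its high value lay in day 34 replicate 2 in both classes.

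The other genes with the largest rise, by the rule stated for named genes, were KRT4 (a keratin of moist squamous epithelia, log2 fold change 4.29), CUZD1 (3.78), ITIH5 (3.48), SCEL (sciellin, of the cornified envelope, 3.45), UPK2 (a uroplakin of urothelium, 3.41), PXDNL (3.40), P2RY6 (a receptor for uridine nucleotides, 3.40), SPRR3 (a small proline-rich protein, 3.17) and PLSCR5 (3.16), all with edgeR adjusted p of 0.00017 to 0.003. A pair of transcribed pseudogenes were in this set, KRT223P (3.93) and CASP17P (3.68), and their counts are uncertain because reads could be shared with related genes. The lowest were FABP2 (-5.14) and RBP2 (-4.25), which carry fatty acids and retinol in gut epithelium, APOA4 (-4.98), an apolipoprotein of gut and liver, SUCNR1 (-4.05), the succinate receptor, and CCL20 (-3.92), a chemokine. FABP2 was at 1.16, 0.156, 0.616, 0 and 0 CPM in the gated cells and at 25.1, 7.69, 37.2, 0.0159 and 0.575 CPM in other cells, so the contrast lay on day 21.

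Gene lists are described by their counts and median log2 fold change, beside a median of 0.00 over all 18832 genes tested. Of 16 genes for epithelial adhesion and simple keratins, 14 were higher and 0 lower (median 1.29), among them KRT80 (2.72), GRHL2 (an epithelial transcription factor, 1.73), CLDN6 (1.68) and CLDN3 (1.60). Of 4 AP-2 family members tested, 4 were higher (median 1.76), namely TFAP2E (2.13), TFAP2B (1.95), TFAP2A (1.57) and TFAP2C (1.38). TFAP2B was not called without day 21 replicate 1, 2 or 3 (adjusted p = 0.0849, 0.0836 and 0.0882). The IRX family had 3 of 6 higher, IRX1, IRX4 (1.36) and IRX2 (1.22), and IRX6 (-1.89) lower. Claudins, the proteins of tight junctions, went both ways, with 7 of 12 higher and 3 lower. Of 13 keratins, 9 were higher and 1, KRT20 (-3.99), was lower.

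Against other cells, markers of extraembryonic and surface epithelia were mixed. Of 16 trophoblast genes only 6 reached the test, and a gene high in the gated cells alone could reach it, so their number and median are not read. The tested genes with the largest difference were INSL4, VGLL1 (a cofactor of TEAD factors, 2.82), PAGE4 (1.97) and TFAP2C. The other listed trophoblast genes did not pass the filter on low counts or were not found by symbol, and CYP19A1 (placental aromatase), GCM1 and ERVW-1 (syncytin) were each at 0 in 4 of 5 libraries of gated cells. CGA, the alpha chain of glycoprotein hormones, was at 0 to 1.16 CPM. Of 16 amnion genes, 7 were higher and 4 lower (median -0.02). ITGB6 (2.37), WNT6 (2.06) and HAND1 (1.84) were higher and CDX2 (-2.87) was lower. Of 8 surface ectoderm and placode genes, 4 were higher and 2 lower, among them GRHL3 (3.23), which was higher, and PITX1 (-3.11), which was lower. Of 10 basal squamous genes, 4 were higher and 0 lower (median 1.25), led by DSC3 (a desmosomal cadherin, 2.06). Of 8 mammary and gland luminal genes, 2 were higher, BARX2 (1.93) and ELF5 (1.34), and 2 lower, PROM1 (-2.14) and EHF (-1.69).

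Of 13 hepatocyte genes, 11 were lower and 0 higher (median -2.98), led by FGA (-3.59), APOB (-3.55), FGG (-3.54) and ALB (-3.26). The hepatocyte list summed to 442, 272 and 408 CPM on day 21 and 77.2 and 177 CPM on day 34 in the gated cells. Other cells gave 3809, 2970, 3487, 105 and 926 CPM, so the contrast was small in day 34 replicate 1. Of 11 gut genes, 11 were lower (median -3.14), led by FABP2, LGALS4 (-3.74), TFF3 (-3.44) and FABP1 (-3.25). The ductal list was split, with 5 of 11 lower, among them ONECUT2 (-2.80), CFTR (-2.69) and ONECUT1 (-2.46), and 3 higher, led by SPP1. Of 15 nephron and ureteric genes only 7 reached the test, which a gene high in other cells alone could do. Their 6 lower calls and median (-2.68) are therefore not read. The list summed to 4.91 to 7.28 CPM in the gated cells and to 12.0 to 64.1 CPM in other cells. Lower calls were made for 7 of 7 tested pluripotent and germ genes and 7 of 12 mesenchymal genes. Among the last were TCF21 (-3.53), PDGFRA (-2.97) and PDGFRB (-2.83). Lists for endothelial cells (2 of 3 lower), immune cells (1 of 2), neural cells (3 of 5), lung and thyroid (2 of 3) and choroid plexus (2 of 6 lower, 2 higher) gave no list with more higher than lower calls. They too held genes that did not reach the test, so these counts carry the same limit. The 12 cell cycle genes had a median of -0.27.

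In the pathways of the named genes the counts can be read against the 16.7% of all genes called higher and 17.3% called lower. Of 15 prostaglandin genes, PTGES, which makes prostaglandin E, was higher (log2 fold change 2.42), as was HPGD, and 7 were lower, among them the receptor genes PTGIR (-3.09) and PTGER2 (-2.87) and the synthase PTGDS (-2.66). Of 14 genes of megalin partners and the LDL receptor family, 3 were higher, LRP2, VLDLR (0.82) and LRPAP1 (0.70), the chaperone of these receptors. DAB2 (-0.86), an endocytic adaptor, was among 2 lower genes. Of 9 other GABA-A receptor subunits tested, GABRA3 was higher (1.00) and GABRA2 (-1.95) and GABRB2 (-1.57) were lower. Of 4 other B7 genes, VSIR (1.47) and ICOSLG (1.16) were higher and NCR3LG1 (-0.99) and CD276 (-0.38) lower. In the BMP list 3 of 16 were higher and 8 lower, among them the BMP antagonist GREM1 (-2.85).

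**Figure D3:**
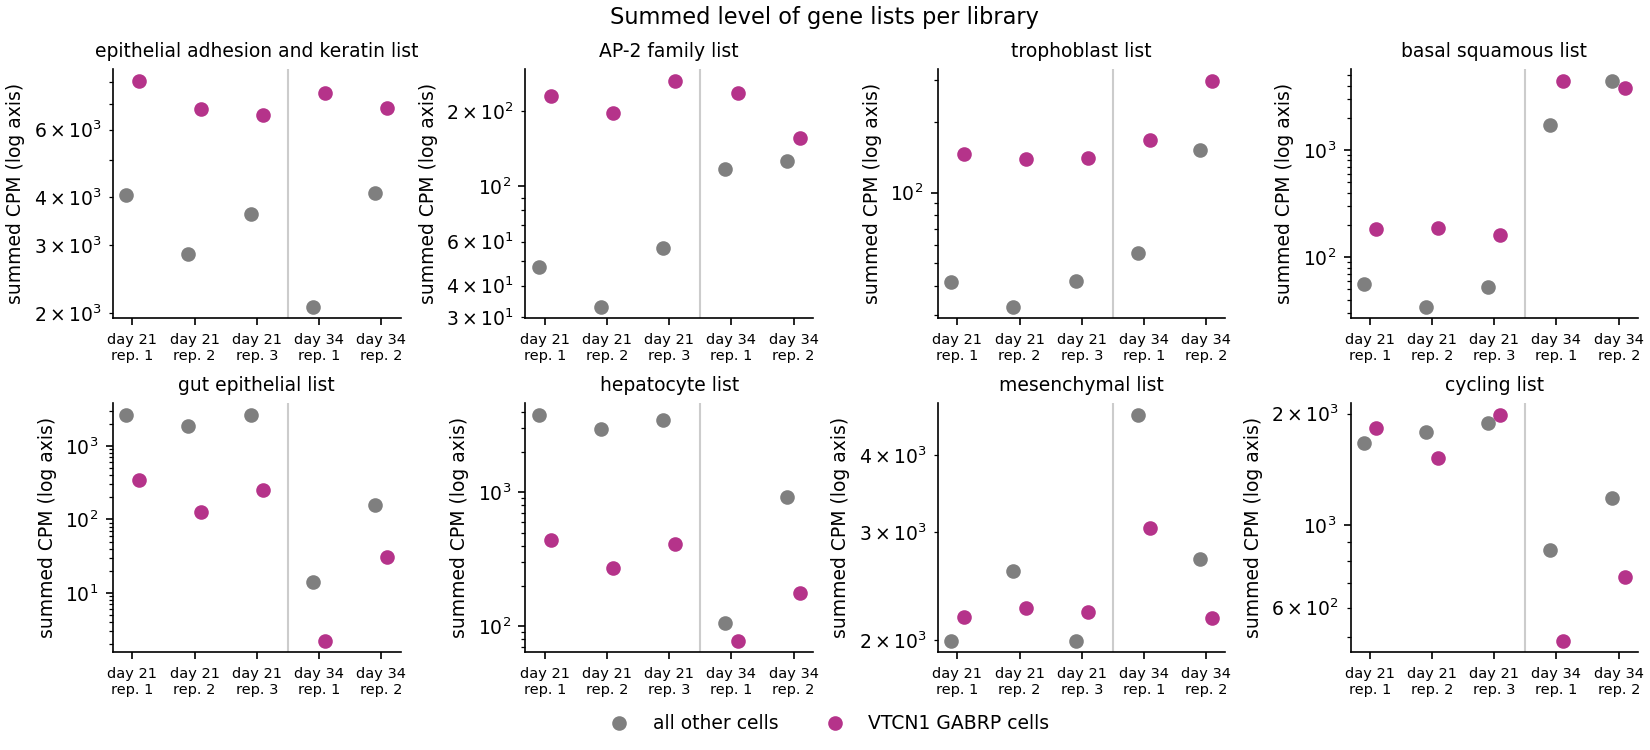
Summed level (CPM, log axis) of 8 gene lists in each ULA library, in the gated cells (magenta) and all other cells (grey). Each point is 1 library. The epithelial list is higher in the gated cells in every library (6534 to 8048 CPM against 2069 to 4112 CPM), the gut list is lower in every library, and the basal squamous list is high on day 34 in both classes (1703 to 4448 CPM).

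Against other EPCAM cells the same test called 3895 of 16599 genes (23.5%), 1696 higher (10.2%) and 2199 lower (13.2%). The count was 1621, 1799 and 1841 without day 21 replicate 1, 2 and 3, and 1377 with the block dropped, where 10 of 20 named genes, among them KRT4, MUC16, INSL4 and CST6, were no longer called. KRT4 stood at 2.57, 1.25 and 2.67 CPM on day 21 and 41.2 and 72.5 CPM on day 34 in the gated cells, against 0.12003, 0.0482, 0, 0.417 and 2.86 CPM in other EPCAM cells (log2 fold change 5.33, SE 0.45, edgeR adjusted p = 0.0013). CUZD1 stood at 19.1, 17.5 and 17.2 CPM on day 21 and 10.6 and 39.6 CPM on day 34, against 0.0900, 0.337, 0.379, 0.486 and 3.85 CPM (4.96, SE 0.52, adjusted p = 0.0022). Here too the same direction in each library was part of the naming rule. The other named genes were MUC16 (5.07), INSL4 (4.85), CST6 (4.49), CASP17P (4.42), KRT223P (4.34), SERPINB2 (a serpin of squamous epithelia, 4.17), PLSCR5 (4.08) and UPK2 (4.07), and at the low end FABP2 (-6.27), RBP2 (-5.42), the apolipoprotein gene APOC3 (-5.26), the neuroendocrine gene CHGA (-4.97) and CCL20 (-4.79). CHGA was not called without day 21 replicate 1, 2 or 3 (adjusted p = 0.087, 0.091 and 0.099), nor CCL20 without day 21 replicate 1 (0.053). Besides those values, CHGA was at 10.5 CPM in the gated cells of day 34 replicate 2 and at most 0.103 CPM in those of the other libraries.

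Hepatocyte genes (11 of 12 lower, median -4.26) and gut genes (11 of 11 lower, median -4.31) were lower here too, beside a median of -0.01 over all genes tested. Of 15 epithelial genes 7 were higher and 0 lower (median 0.67). The amnion list had 7 of 16 higher, led by HAND1 (2.76), TFAP2A (1.96) and ITGB6 (1.87), and 2 lower, CDX2 (-4.00) and CLDN10. Its median was 0.85. Of the 5 identity genes, named with such results known, KRT7 (2.66), IRX1 (2.35) and LRP2 were called, while HPGD (1.03, adjusted p = 0.0788) was not, nor was TFAP2B (adjusted p = 0.0995). LRP2 was not called without day 21 replicate 1, 2 or 3 (adjusted p = 0.0757, 0.0689 and 0.0738), while TFAP2B was called without day 34 replicate 2 (0.0365) and HPGD without day 34 replicate 1 (0.0206). In the AP-2 family TFAP2A and TFAP2C (0.95) were called and TFAP2B (2.47, SE 0.92) and TFAP2E were not. In the trophoblast list INSL4, VGLL1 (3.42), SDC1 (a syndecan, 1.22) and TFAP2C were called among 5 tested of 16 listed. That number is not read, for the reason given above. In the basal squamous list DSC3 alone was called among 10 (2.38). PTGES was higher again (3.10). Of 12 mesenchymal genes 1, the collagen gene COL3A1, was higher in the gated cells than in other EPCAM cells, at 656, 780.3 and 680.3 CPM on day 21 and 1607 and 980.2 CPM on day 34 against 209, 288, 183, 1498 and 538 CPM (1.14, SE 0.22, adjusted p = 0.013), while TCF21 (-1.79), PDGFRA (-1.58) and PDGFRB (-1.42) were lower. In the mesenchymal reference COL3A1 stood at 1424 to 2063 CPM. The 12 mesenchymal genes summed to 2177 to 3041 CPM in the gated cells and to 554 to 3697 CPM in other EPCAM cells. What doublets or free RNA contributed to these values was not tested.

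Clusters were built on 2000 variable genes, less any gate, identity, mitochondrial and ribosomal protein genes among them. They placed the gated cells of the 2 days apart. On day 21, 73.3, 78.6 and 71.7% of the gated cells fell in cluster 3 and 20.5, 16.1 and 20.8% in cluster 7, which held 6 cell cycle markers among its 50 leading genes. On day 34, 91.4% of the gated cells of replicate 1 fell in cluster 10, and 72.1% of those of replicate 2 fell in cluster 13, 9.81% in cluster 8 and 5.92% in cluster 3. Cluster 3 held 25.6, 17.3 and 21.4% of all cells on day 21 and 0.462 and 1.22% on day 34. Cluster 10 held 45.2% of the cells of day 34 replicate 1 and at most 0.0750% of those of any other library, and cluster 13 held 15.4% of day 34 replicate 2. Clusters 10 and 13 are thus largely 1 library each, and no cell type name is given to them. No values were integrated between libraries, and the gated cells were 61.0% of cluster 3, 56.6% of cluster 7, 26.1% of cluster 10 and 23.4% of cluster 13.

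**Figure D4:**
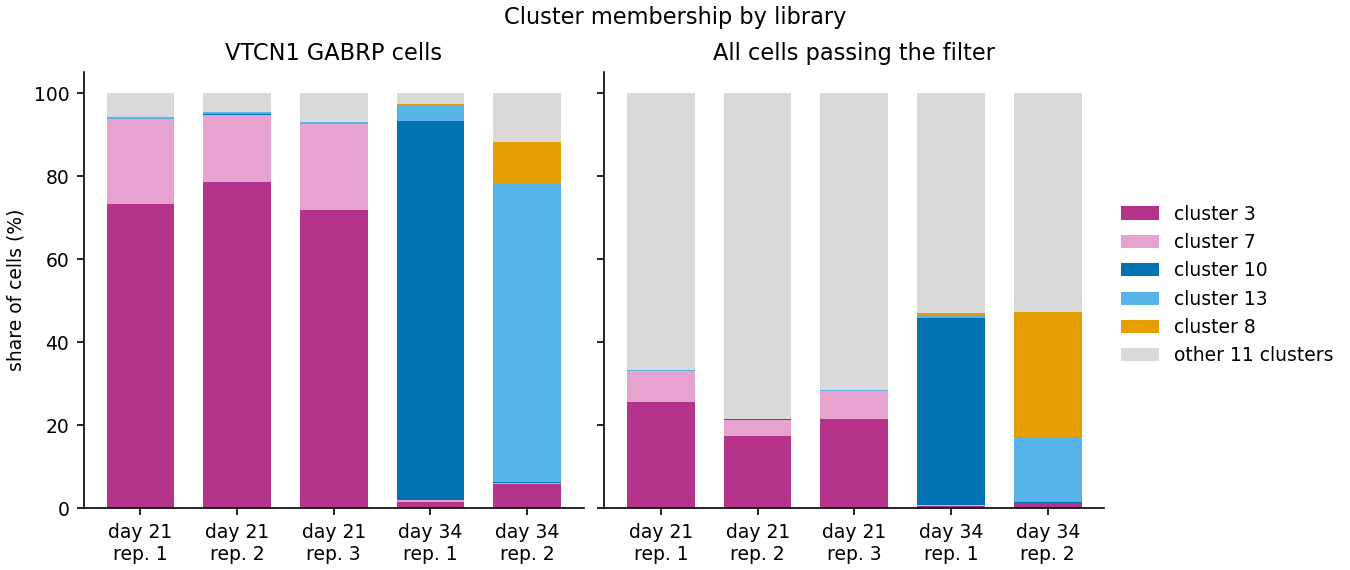
Share (%) of the gated cells (left) and of all cells (right) in clusters 3, 7, 10, 13 and 8 and in the other 11 clusters, by library. Bars are single libraries and sum to 100%. The gated cells of day 21 lie in clusters 3 and 7, those of day 34 replicate 1 in cluster 10 (91.4%) and those of day 34 replicate 2 mainly in cluster 13 (72.1%).

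Within the gated cells, 10 of 12 listed basal squamous genes were higher on day 34. Lower on day 34 were 8 of 12 cell cycle genes and 3 of the 5 identity genes. edgeR's quasi-likelihood test over the 5 libraries called 3749 of 16253 genes (23.1%), 2126 higher on day 34 (13.1%) and 1623 lower (9.99%). The count was 1319, 2206 and 1670 without day 21 replicate 1, 2 and 3, and 6459 without day 34 replicate 2, the lone day 34 library then being assumed to vary like the others. With cells gated after thinning to 3000 UMIs it was 2058, and with the replicate number as a block it was 765. LRP2 fell by 2.29 on the log2 scale (SE 0.25, adjusted p = 0.00071), TFAP2B by 2.05 (SE 0.30, adjusted p = 0.0024) and HPGD by 1.97 (SE 0.31, adjusted p = 0.0034), with no overlap between days in the levels above. IRX1 (-0.41, SE 0.46, adjusted p = 0.56) and KRT7 (0.01, SE 0.24, adjusted p = 0.99) did not pass. Without day 34 replicate 1, IRX1 was called at -1.69 (adjusted p = 0.000324).

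KRT17, a keratin of basal and stressed epithelia, stood at 32.9, 30.4 and 23.1 CPM on day 21 and 2704 and 2268 CPM on day 34 in the gated cells (log2 fold change 6.42, SE 0.26, adjusted p = 1.4e-05). KRT5, a keratin of basal cells, stood at 10.9, 4.68 and 8.41 CPM on day 21 and 261 and 493 CPM on day 34 (5.51, SE 0.37, adjusted p = 8.6e-05). KRT6A, another keratin of stratified epithelia, stood at 1.12, 3.27 and 2.36 CPM on day 21 and 700.1 and 242 CPM on day 34 (7.77, SE 0.59, adjusted p = 0.00014). The days did not overlap for these 3 keratins, and KRT6A was higher in replicate 1 of day 34 and KRT5 in replicate 2. Other cells of the same libraries held KRT17 at 5.42, 3.78, 5.46, 884 and 2502 CPM and KRT5 at 2.04, 0.489, 1.42, 234 and 814 CPM. Both keratins were also found in the mesenchymal reference on day 34, KRT17 at 72.7 and 599.5 CPM and KRT5 at 20.6 and 212 CPM, against at most 1.81 and 0.0607 CPM on day 21. The part that free RNA played in the keratin values of day 34 was not tested. KRT17 of the gated cells was 37.2 and 3.78 times that of the mesenchymal reference in replicates 1 and 2. Other EPCAM cells held KRT17 at 2.31, 2.215 and 2.33 CPM on day 21 and 1518 and 2970 CPM on day 34. They held KRT5 at 0.15, 0.0482 and 0.978 CPM on day 21 and 490 and 1035 CPM on day 34. On day 34 the gated cells thus lay below other EPCAM cells in KRT5 in both libraries, and in KRT17 in replicate 2.

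Of 12 basal squamous genes, 10 were higher on day 34 and 0 lower (median log2 fold change 3.83, beside 0.01 over all genes tested), led by KRT6A, PKP1 (a desmosomal plaque protein, 6.57), KRT17 and KRT5. All 12 listed genes reached the test, which a gene high on day 34 alone could do. The 12 genes summed to 185, 186 and 161 CPM on day 21 and 4448 and 3826 CPM on day 34 in the gated cells. TP63, the transcription factor that defines basal epithelia, was named after its values were seen, and did not pass. It stood at 14.9, 19.1 and 16.2 CPM on day 21 and 22.9 and 12.2 CPM on day 34 (0.09, SE 0.29, adjusted p = 0.85). Of 14 keratins, all tested with the same limit, 9 were higher and 1 lower (median 3.45). Of 14 mammary and gland luminal genes only 6 reached the test, which a gene high on day 34 alone could do, so their number is not read. Those called were SLPI (an antiprotease of mucosal surfaces, 6.48), MUC1 (4.40) and ELF5 (1.69), all higher. In the trophoblast list 7 of 16 reached the test, and the 4 higher calls and 1 lower call are likewise not read. CGA, one of the 4, was at or below 1.16 CPM in every library.

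By the rule for named genes the other large rises were in KRT13 (8.02), S100A8 (a calcium-binding protein of inflamed epithelia, 7.35), GNA15 (7.06), SPRR1B (a cornified envelope precursor, 6.86), SERPINB2 (6.72) and LRMP (6.71). DSG1, a desmosomal cadherin of upper squamous layers, was at 0, 0.0779 and 0 CPM on day 21 and 23.6 and 17.4 CPM on day 34. KRT1, a keratin of upper epidermis, was at 0.0414, 0.0779 and 0 CPM on day 21 and 2.26 and 19.9 CPM on day 34. Day 21 held 1 UMI of DSG1 and 2 of KRT1 in all, so no fold change is given for either.

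**Figure D5:**
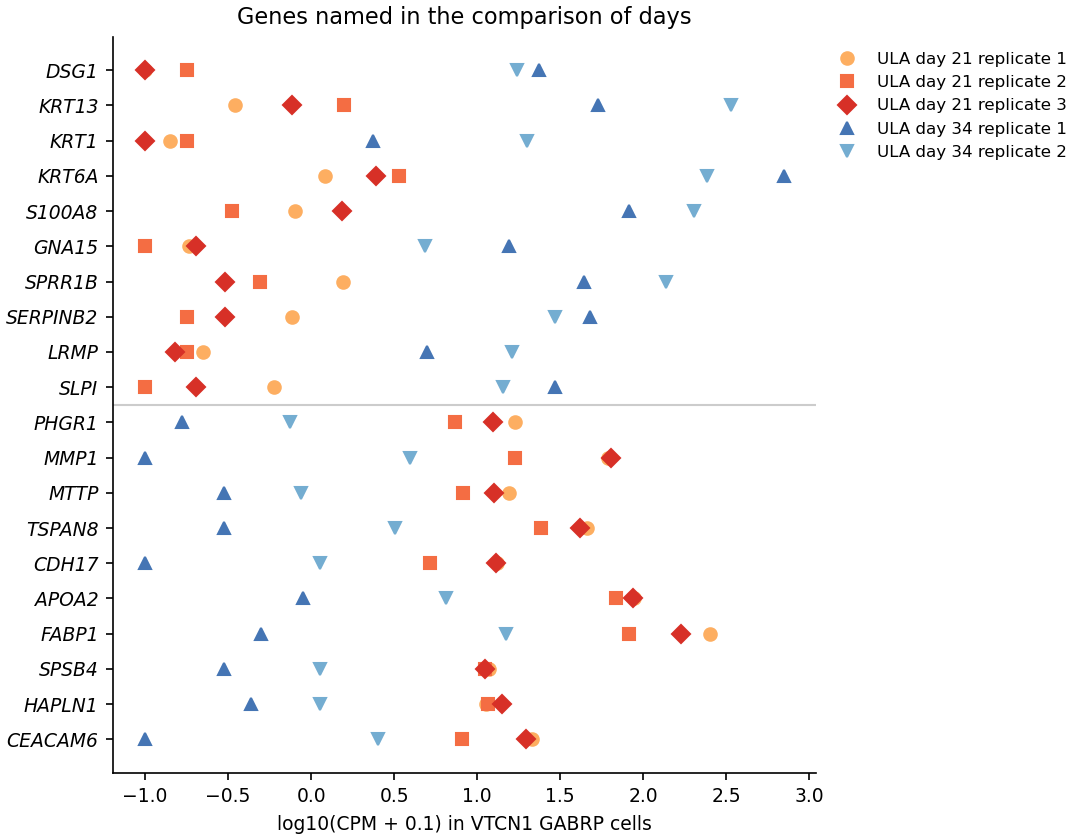
Level of the 20 genes named in the comparison of days, as log10(CPM + 0.1) in the gated cells. Each symbol is 1 library, warm colours day 21 and blue day 34. By the rule that chose them the days do not overlap, and MMP1, CDH17 and CEACAM6 are at 0 in day 34 replicate 1.

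In the gut list 10 of 12 genes reached the test, with 6 lower and 0 higher (median -3.33). In the hepatocyte list 11 of 14 did, with 6 lower and 0 higher (median -2.63). A gene high on day 21 alone could reach the test, so these counts and medians are not read. In the gated cells the gut list summed to 342, 125 and 250 CPM on day 21 and 2.19 and 31.0 CPM on day 34. The hepatocyte list summed to 442, 272 and 408 CPM and then 77.2 and 177 CPM. FABP1, a fatty acid carrier of liver and gut, stood at 251, 81.7 and 169 CPM on day 21 and 0.398 and 14.8 CPM on day 34 in the gated cells (-4.65, SE 1.03, adjusted p = 0.014). The same days gave 1874, 1382, 1840 and then 7.22 and 74.7 CPM in other cells, and 25.9, 18.9, 20.8, 0.330 and 8.45 CPM in the mesenchymal reference. The gene fell in the gated cells, and lay lower on day 34 in both references too. What free RNA contributed was not tested. The other named falls were PHGR1 (-5.45), MMP1 (a collagenase, -4.98), MTTP (the lipid transfer protein of lipoprotein assembly, -4.87), TSPAN8 (-4.82), CDH17 (-4.77), APOA2 (-4.71), SPSB4 (-4.45), HAPLN1 (a matrix link protein, -4.37) and CEACAM6 (-4.13). MMP1, FABP1 and CEACAM6 were not called without day 21 replicate 1 (adjusted p = 0.052, 0.058 and 0.068) or without day 21 replicate 3 (0.067, 0.071 and 0.080). Of 25 named genes, 2 were not called by DESeq2, MMP1 and CEACAM6, and 4 were not called with the replicate number as a block, these 2, FABP1 and CDH17.

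Of 12 cell cycle genes, 8 were lower on day 34 and 0 higher (median -1.59), led by CCNB1 (-2.21), UBE2C (-2.05), CDK1 (-1.99) and BIRC5 (-1.80). The 12 genes summed to 1826, 1515 and 1989 CPM on day 21 and 487 and 725 CPM on day 34 in the gated cells, with no overlap between days. In other cells they summed to 1662, 1781 and 1894 CPM on day 21 and 858 and 1183 CPM on day 34. Of 16 amnion genes, 7 were lower and 2 higher, among them BAMBI (a decoy receptor for BMP and TGF-beta, -1.81), CDX2 (-3.58), IGFBP3 (1.94) and ITGB6 (1.49). Of 10 prostaglandin genes, PTGES (1.62) and PTGS2 were higher while HPGD and PTGES3 were lower.

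The keratins and TFAP2B were also read as shares of cells after thinning to 3000 UMIs, which left out 6, 4 and 15 shallower gated cells on day 21 and 1 and 0 on day 34. KRT17 was found in 7.38, 7.39 and 5.38% of gated cells on day 21 and in 86.0 and 89.3% on day 34, beside 0.580, 0.203, 0.377, 9.13 and 34.3% of the mesenchymal reference. KRT5 was found in 1.66, 1.39 and 1.32% of gated cells on day 21 and in 32.6 and 45.2% on day 34, beside 0, 0, 0, 4.19 and 19.99% of the mesenchymal reference. Both shares were above the reference in each library, and the reference itself was higher on day 34, most in replicate 2. The reference was chosen for 0 UMIs of EPCAM, so it may hold less epithelial free RNA than gated droplets. Whether it did was not tested. TFAP2B was found in 0.258, 0.305, 0.565, 0.908 and 1.72% of the reference, below its shares in gated cells given above. Since background of this size can place a keratin UMI in a droplet, no joint state of single cells is read.

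The day effect in the gated cells was also set against that in the other cells of the same libraries, as a difference of 2 log2 changes with the library as a block. Other cells included cells with VTCN1 alone or GABRP alone. On day 21 these were 192 and 490 of 4568, 126 and 318 of 4614, and 200 and 575 of 5150 other cells. On day 34 they were 208 and 649 of 3769, and 285 and 2459 of 11836. edgeR called 3122 of 21004 genes (14.9%), 1384 with a more positive day effect in the gated cells (6.59%) and 1738 with a more negative one (8.27%). The count was 1049 without day 21 replicate 1, 1566 without day 21 replicate 3 and 1628 with cells gated after thinning. With the replicate number as a block the test called 0 genes, with 1224 at an unadjusted p under 0.05. Each of the 5 identity genes had a more negative day effect in the gated cells, TFAP2B by -2.41 (SE 0.33, adjusted p = 0.0029), HPGD by -1.47 (SE 0.21, adjusted p = 0.0031), LRP2 by -1.37 (SE 0.30, adjusted p = 0.018), KRT7 by -1.22 (SE 0.35, adjusted p = 0.048) and IRX1 by -0.94 (SE 0.19, adjusted p = 0.015). KRT7 and IRX1 did not pass between days within the gated cells. The 5 genes were named for the gated cells with earlier results known. Of the gated cells, 3204 came from day 21 and 1148 from day 34, so that choice could favour a more negative difference of day effects. KRT7 was not called without day 21 replicate 1, 2 or 3 or day 34 replicate 2 (adjusted p = 0.12, 0.13, 0.056 and 0.16), nor IRX1 without day 21 replicate 1 or 2 (0.087 and 0.054).

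Of 12 basal squamous genes, 6 had a more negative day effect in the gated cells and 0 a more positive one, led by TP63 (-2.85), KRT5 (-2.80), S100A2 (-1.97) and KRT17 (-1.72). Such a value can come from a larger rise in other cells. It does for KRT5 and KRT17, which rose in both classes by the levels given above. Within the gated cells KRT5 (5.51) and KRT17 (6.42) rose from day 21 to day 34, and TP63 did not pass. On day 34 the summed list stood at 4448 and 3826 CPM in the gated cells and at 1703 and 4428 CPM in other cells, so the gated cells were higher in replicate 1 and lower in replicate 2. Of 12 cell cycle genes, 8 had a more negative day effect in the gated cells, as had 3 of 4 AP-2 genes and 4 of 6 IRX genes, with 0 more positive in each. Of 12 gut genes, 0 had a more negative and 1 a more positive day effect in the gated cells (median 0.77, beside -0.07 over all genes tested). Among genes with a more positive effect, MUC1, a membrane mucin chosen here after its values were seen, stood at 5.47, 5.38 and 6.51 CPM on day 21 and 155 and 90.01 CPM on day 34 in the gated cells, against 23.9, 15.2, 24.3, 31.7 and 35.7 CPM in other cells (3.79, SE 0.30, adjusted p = 0.00039). In MUC1 the gated cells were the lower class on day 21 and the higher class on day 34.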

How the data were processed

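The deposited files were raw UMI count matrices, 1 per library. Per the submitters' processing notes the authors used bcl2fastq, Cell Ranger 3.0.2 with GRCh38, and Scanpy, and per the file headers the count matrices came from software version 3.0.2. The ULA matrices listed 58721 genes, and the deposited barcodes held at least 500 UMIs. From all 19 libraries, barcodes with fewer than 500 genes or over 20% mitochondrial counts were dropped. The members and lists were chosen with earlier results of these data known. Genes named in the text followed a rule of largest change among those past the threshold with the same direction in every library, or with no overlap between days. Counts were summed per library and class and tested with edgeR 4.0.16 (R 4.3.3, TMM scaling, filterByExpr, quasi-likelihood test, Benjamini-Hochberg adjustment at 0.05), with the library as a block where classes of 1 library were compared. Classes needed at least 20 cells. Clusters used scanpy 1.11.5 with 30 components, 15 neighbours and resolution 0.5, without integration. They used 2000 variable genes, from which gate, identity, mitochondrial and ribosomal protein genes were then dropped. Doublets were scored with Scrublet at a rate of 0.8% per 1000 barcodes; its automatic limit marked at most 0.0462% of cells in 4 of 5 ULA libraries and 16.6% in day 34 replicate 2, so the highest-scoring cells at that rate were removed in an alternative only. Intervals are exact Clopper-Pearson at 95%. The test was tried on simulated counts with changes of 2 and 1 on the log2 scale. These counts had the same spread for every gene (dispersion 0.05) and no other variation by library, day or class. The real libraries differ more, so the rates below are not the power of the real tests. It recovered 85 and 58% of them against other cells, 94 and 70% against other EPCAM cells, 94 and 36% between days, and 46 and 2% for the difference of day effects. Alternatives changed the size factors, the tool (DESeq2 1.42.0), the filter, the gate, doublets, depth, the block and each library.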

Additional observations from a re-analysis of the deposited data

Results flagged for a closer look

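The 10 genes here had a day effect in the gated cells that differed from the day effect in the other cells of the same libraries, by edgeR's test of the difference itself, and were the 5 most positive and 5 most negative that met the naming rule. With the replicate number as a block, 0 of the 10 passed. All values are log2 differences of day effects, followed by CPM on day 21 (replicates 1 to 3) and day 34 (replicates 1 and 2).

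Among the positive ones, LIPH, a phospholipase, had a difference of 4.923. It stood at 1.45, 1.01, 1.39, 7.30 and 12.5 CPM in the gated cells and at 12.9, 6.08, 12.6, 0.972 and 6.43 CPM in other cells. AMN (amnionless, a partner of cubilin in endocytosis) had a difference of 4.886, with 5.18, 3.97, 3.08, 54.6 and 29.1 CPM in the gated cells and 29.5, 20.9, 22.8, 7.41 and 10.7 CPM in other cells. For both genes the gated cells were the lower class on day 21 and the higher class on day 34. HOPX, an atypical homeodomain protein, had a difference of 4.714, with 1.66, 1.87, 1.13, 10.9 and 51.7 CPM in the gated cells and 15.6, 22.7, 9.91, 8.57 and 11.9 CPM in other cells. MISP had a difference of 4.132, with 3.48, 1.40, 2.51, 5.78 and 2.83 CPM against 30.8, 20.3, 26.4, 2.41 and 3.46 CPM. PRR15L had a difference of 4.048, with 9.65, 5.38, 8.21, 9.96 and 13.6 CPM against 45.4, 21.7, 34.6, 1.16 and 7.36 CPM. In MISP and PRR15L the fall in other cells made most of the difference.

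Among the negative ones, SPRR1B had a difference of -5.136, but other cells held it at 0, 0 and 0.016 CPM on day 21, so the value depends on 1 UMI. It was -3.38 and not called without day 21 replicate 1 (adjusted p = 0.186), and 1.33 with cells gated after thinning. RSPO3, a secreted enhancer of WNT signalling, had a difference of -3.511, with 56.8, 41.0, 73.6, 18.7 and 4.37 CPM in the gated cells and 16.9, 11.5, 17.7, 57.0 and 17.7 CPM in other cells. The gated cells were the higher class on day 21 and the lower class on day 34. COL12A1, a fibril-associated collagen, had a difference of -3.364, with 12.8, 17.8, 14.8, 55.2 and 19.2 CPM against 1.36, 1.23, 1.64, 47.1 and 26.0 CPM. HBD (delta globin) had a difference of -3.30 that rested on day 34 replicate 1, where it stood at 26.6 CPM in the gated cells and 43.9 CPM in other cells, and was -0.93 (adjusted p = 0.62) without that library. HAPLN1 had a difference of -3.24, with 11.3, 11.5, 14.1, 0.332 and 1.03 CPM against 5.30, 6.92, 6.38, 2.21 and 4.21 CPM.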

How the results depend on the processing

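The difference in share between the days kept its sign under every alternative run: -6.50 points with at least 2 UMIs of each gene, -7.31 with stricter cell limits (exact permutation p = 0.4, the days then overlapping), -9.13 without predicted doublets, -4.08 after thinning, and -5.24 to -13.4 with each library left out. Counts of called genes moved by over 1.5 times under several settings. With no library block, 2099 genes were called against other cells and 1377 against other EPCAM cells, and 11 of 25 and 10 of 20 named genes lost their call. Gating on cells thinned to 3000 UMIs, chosen after seeing the data, gave 2058 genes between days and 1628 for the difference of day effects, and turned SPRR1B to 1.33 there; the cause was not tested. With each library left out, 4341 to 6374 genes were called against other cells, 1621 to 4380 against other EPCAM cells, 1319 to 6459 between days and 1049 to 3856 for the difference of day effects. The replicate block gave a share difference of -9.24 points, 765 genes between days and 0 for the difference of day effects. Only 2 replicate numbers are shared, and same-numbered libraries did not deviate together (correlations of -0.0885 and -0.166). Deviations were taken from the mean of each day, so those of the 2 day 34 libraries mirror each other. The 2 correlations are therefore not independent and cannot decide whether the block is needed. With no filter on low counts, 2331 genes were higher and 4195 lower against other cells, and the median of all genes moved by -0.21. TFAP2B against other cells stood at 1.72, 1.55 and 1.74 without day 21 replicate 1, 2 and 3. Depth limits the gate: 1 UMI is close to what shallow cells can show, and fewer cells expressing a gene and less mRNA per cell cannot be told apart.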

Other observations

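The same gate in the 14 shaker libraries found 814 of 85951 cells, between 0 and 3.39% per library. In the mesenchymal reference of those libraries it passed 0 to 1.09% of cells in 12 libraries. In the libraries labelled OA it passed 13.04% (3 of 23) and 27.8% (5 of 18) of reference cells in replicates 1 and 2, above the gate's share of all cells there (1.85 and 1.46%). The values below cover the 7 shaker libraries with at least 40 gated cells, without thinning, and set the gated cells beside other cells. KRT7 was found in 63.6 to 96.5% of gated cells (median 80.9%) and in 19.5 to 53.3% of other cells. EPCAM was found in 77.3 to 98.1% of gated cells (median 86.0%) and in 53.6 to 94.2% of other cells, and was more frequent in other cells in both OA libraries. COL1A1, a mesenchymal collagen, was found in 31.6 to 75.9% of gated cells and in 8.22 to 64.01% of other cells. TFAP2B was found in 2.13 to 25.7% (0 to 1.54% of other cells), LRP2 in 0 to 3.51% (0.0330 to 1.51%), IRX1 in 10.6 to 25.7% (0.0630 to 0.936%) and HPGD in 12.8 to 42.1% (14.6 to 66.8%). KRT5 was found in 25.8 to 66.7% (0.252 to 8.46%), TFAP2A in 38.3 to 74.3% (1.42 to 9.70%) and GATA3 in 39.4 to 72.4% (1.54 to 6.42%). TP63 was found in 0 to 4.76% (0.252 to 1.17%), with a median of 0% in gated cells, and ISL1 in 12.8 to 44.7% (4.09 to 16.1%). Shaker libraries differ from ULA libraries in day, culture and in the gene annotation of their matrices, some also in treatment, and these values were not compared by a test.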
